A study of Mus musculus with 24 samples.

Results

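The Dusp and Sprouty feedback regulators are 10 genes whose products hold back MAP kinase signalling: Dusp1, Dusp3, Dusp4, Dusp5, Dusp6, Dusp14, Spry2, Spry4, Spred1 and Spred2. They were chosen by gene symbol as inhibitors of this pathway, with earlier results of these data known. All 10 were found among the 38355 genes of the count tables. Levels were measured by sequencing of polyadenylated RNA from the CA1 field of the hippocampus. Every mouse was C57BL/6J, 3 to 5 months old and homozygous for a floxed Kat2a allele (Kat2a fl/fl), the controls included. The conditional knockout (cKO) mice also carried CamKII_alpha-cre, whose promoter is active in excitatory neurons of the forebrain, and leaves the gene intact in cells where it is silent. The 4 groups were 7 libraries of cKO mice after 15 min of exposure to novelty, 5 of control mice after the same exposure, 6 of naive cKO mice and 6 of naive control mice. The labels do not say that each library came from its own mouse, so p-values measure the spread between libraries. The study asked which hippocampal transcripts depend on Kat2a, a histone acetyltransferase, and which respond to novelty.

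MAP kinases such as ERK are switched on when a threonine and a tyrosine in their activation loop are phosphorylated, and dual-specificity phosphatases (DUSPs) switch them off by removing both phosphates. Sprouty and Spred proteins act further up, at the membrane, where they limit the passage of growth factor signals through RAS and RAF. Several of these genes are themselves transcribed in response to ERK, which closes a negative feedback loop. In hippocampal neurons ERK is activated by synaptic input and drives the transcription of immediate early genes.

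Promoter sequences are shown for the member with the largest novelty response (Dusp5), a member with a complete cyclic AMP response element (Dusp1) and the ERK-selective cytoplasmic phosphatase (Dusp6). Each window holds 300 bases, 250 before and 50 after the start given by RefSeq on build GRCm38.p6. They lie at chr19:53528895-53529194 (plus strand), chr17:26508423-26508722 (minus strand) and chr10:99262981-99263280 (plus strand), and are written in the direction of transcription. Capitals mark the matches to the motifs named in the next paragraph.
Dusp5: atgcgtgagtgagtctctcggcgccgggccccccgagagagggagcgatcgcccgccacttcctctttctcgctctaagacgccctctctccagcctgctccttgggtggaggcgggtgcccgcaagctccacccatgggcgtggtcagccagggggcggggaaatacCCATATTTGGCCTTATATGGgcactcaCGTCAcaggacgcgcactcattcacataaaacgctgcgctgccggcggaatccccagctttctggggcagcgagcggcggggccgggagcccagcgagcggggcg
Dusp1: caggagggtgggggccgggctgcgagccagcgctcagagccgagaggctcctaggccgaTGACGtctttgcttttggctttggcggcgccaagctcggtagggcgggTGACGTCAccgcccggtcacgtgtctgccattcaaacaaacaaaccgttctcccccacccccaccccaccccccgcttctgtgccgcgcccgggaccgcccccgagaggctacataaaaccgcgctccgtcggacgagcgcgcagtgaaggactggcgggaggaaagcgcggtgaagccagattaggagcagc
Dusp6: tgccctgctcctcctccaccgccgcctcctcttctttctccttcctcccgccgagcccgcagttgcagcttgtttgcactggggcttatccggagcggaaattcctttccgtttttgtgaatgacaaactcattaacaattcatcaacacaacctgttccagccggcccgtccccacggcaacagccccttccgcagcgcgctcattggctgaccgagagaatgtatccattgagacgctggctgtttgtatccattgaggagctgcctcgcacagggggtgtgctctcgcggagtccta

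A window was found for 8 of the 10 members, and none was used for Dusp4 and Spry4. Both strands were searched for the cyclic AMP response element TGACGTCA, its half-site TGACG, which also lies within the complete element, the CArG box that serum response factor binds, the AP-1 site TGANTCA, the ETS site CCGGAAG and the EGR site GCGNGGGCG. Dusp5 held 2 CArG boxes next to each other, with first bases at -82 and -72 from the start, and a half-site at -55. A CArG box was present in 1.63% of 32851 mouse windows of this length. Dusp1 held 1 complete element at -143, a motif found in 1.79% of all windows, and a further half-site at -191. Spred2 held 1 half-site, at -51, which 20.8% of all windows also had. The windows of Dusp3, Dusp6, Dusp14, Spry2 and Spred1 held none of the searched letters. The AP-1, ETS and EGR sites, present in 7.81, 8.86 and 5.55% of all windows, were in none of the 8.

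The libraries held 10.7 to 35.8 M reads assigned to genes, with a median of 19.0 M. Levels are given as CPM, the reads of a gene relative to the TMM-adjusted total of its library. Each member had at least 110 reads in every library, and all 10 passed the filter on low counts in each comparison. Kat2a itself was at 31.0 to 38.1 CPM in cKO novelty libraries, against 56.1 to 64.3 CPM in control novelty libraries, and at 32.1 to 38.9 CPM in cKO naive libraries, against 58.6 to 70.4 CPM in control naive libraries, with no overlap. Markers of CA1 pyramidal neurons summed to 1200 to 1774 CPM over all libraries, with none of the 8 at 0. Markers of dentate granule neurons (122.6 to 425.0 CPM), interneurons (881.9 to 1147 CPM), astrocytes, oligodendrocytes and other cell types were read as well, so the tissue was not neurons alone, and fewer cells of a type and less RNA per cell cannot be told apart.

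Among the nuclear phosphatases, Dusp5 showed the largest novelty response of the 10 members, 2.15-fold in cKO mice and 2.14-fold in controls, Dusp4 passed in controls, and Dusp1 passed in neither genotype alone. Dusp5, an ERK-selective phosphatase of the nucleus whose gene lies at chr19:53529109-53542431 on the plus strand of GRCm38, was at 29.2, 32.4, 21.5, 24.9 and 34.9 CPM in the 5 control novelty libraries. In control naive libraries its lowest, median and highest levels were 9.39, 14.0 and 15.8 CPM. Every control novelty library stood above every control naive library. The log2 fold change was 1.10 with a standard error (SE) of 0.14 (adjusted p = 0.00138, quasi-likelihood test of edgeR). In cKO mice Dusp5 had a lowest, median and highest level of 17.1, 26.1 and 32.2 CPM after novelty, against 10.5, 11.7 and 15.0 CPM in naive libraries. These groups did not overlap either, and the log2 fold change was 1.10 (SE 0.13, adjusted p = 0.000298 in edgeR). An antisense transcript overlaps Dusp5 in the GENCODE M21 annotation. Without strand information from the library kit, its reads cannot be told apart from those of Dusp5.

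Dusp4 removes phosphates from ERK and JNK in the nucleus, and its gene lies at chr8:34807297-34819894 (plus strand). It was at 21.9, 23.6, 18.2, 21.0 and 22.2 CPM in control novelty libraries, against a lowest, median and highest level of 13.6, 14.8 and 15.9 CPM in control naive libraries. All 5 novelty libraries were above the highest naive one, with a log2 fold change of 0.51 (SE 0.07, adjusted p = 0.00127 in edgeR). In cKO mice the lowest, median and highest levels were 12.5, 16.6 and 20.6 CPM after novelty, against 11.2, 12.6 and 16.2 CPM in naive libraries. The cKO groups overlapped, and the log2 fold change of 0.38 (SE 0.12) did not pass (edgeR adjusted p = 0.108). It passed in DESeq2 (adjusted p = 0.0417), with the spread taken from all 24 libraries (edgeR adjusted p = 0.0276), without cKO naive library 5 (edgeR adjusted p = 0.0458), which had the highest naive level, and without cKO novelty library 1 (edgeR adjusted p = 0.041), which had the lowest level after novelty. The difference between the genotypes in the novelty effect on Dusp4 was -0.14 (SE 0.14, log2), with an unadjusted p of 0.339 and an adjusted p of 1 in edgeR's interaction test.

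Dusp1, at chr17:26505590-26508519 (minus strand), encodes the immediate early phosphatase of p38, JNK and ERK. Its lowest, median and highest levels in cKO mice were 14.7, 21.3 and 31.3 CPM after novelty, against 9.84, 13.9 and 17.2 CPM in naive libraries. Libraries of the cKO novelty group were uneven: Dusp1 had a coefficient of variation of 30.1% there, the highest of any member in any group, with libraries 6 and 4 at 31.3 and 28.4 CPM and library 5 at 14.7 CPM. In control mice it was at 13.3, 19.5, 16.8, 14.5 and 17.4 CPM after novelty, against a lowest, median and highest level of 10.4, 12.5 and 15.0 CPM in naive libraries. The groups overlapped in both genotypes, and the log2 fold changes of 0.66 in cKO mice (SE 0.19, adjusted p = 0.0991 in edgeR) and 0.37 in controls (SE 0.11, adjusted p = 0.124 in edgeR) did not pass. DESeq2 on the same counts gave adjusted p = 0.0109 in cKO mice and 0.0452 in controls. Averaged over both genotypes in 1 fit of all 24 libraries, Dusp1 rose by 0.52 (log2, SE 0.12, adjusted p = 0.00769 in edgeR).

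**Figure D1:**
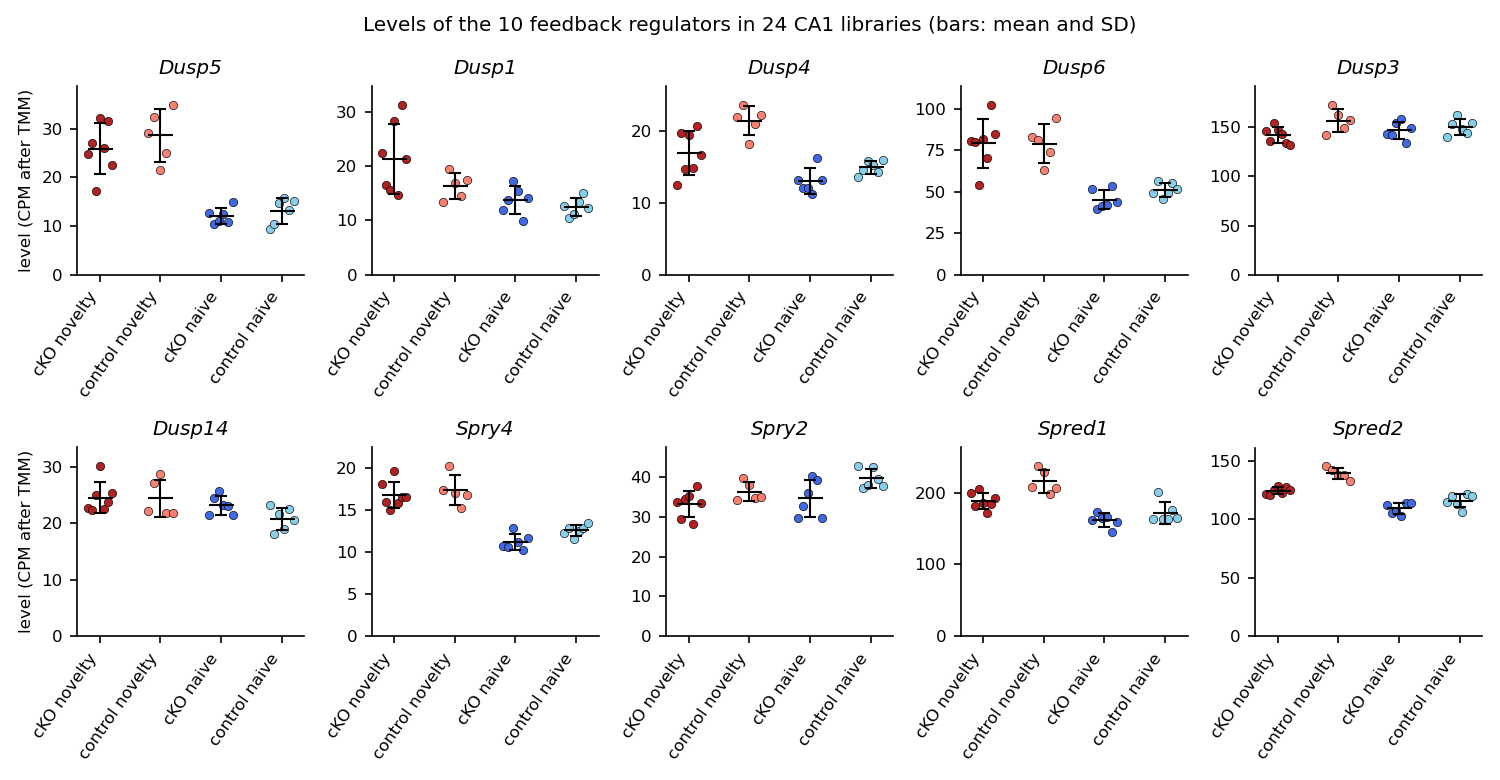
Level of each of the 10 feedback regulators in every library, in CPM after TMM scaling (y axes start at 0). The groups stand on the x axis from cKO novelty to control naive, each point is 1 library, and the bars give the mean and SD. Dusp5 was at 17.1 to 34.9 CPM in the 12 novelty libraries and at 9.39 to 15.8 CPM in the 12 naive libraries.

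Dusp6, the cytoplasmic phosphatase selective for ERK (chr10:99263231-99267488, plus strand), rose with novelty in both genotypes. In cKO mice its lowest, median and highest levels were 54.0, 80.4 and 102.2 CPM after novelty, against 39.3, 42.7 and 53.1 CPM in naive libraries. In control mice it was at 82.6, 81.0, 62.7, 74.0 and 94.3 CPM after novelty, against a lowest, median and highest level of 45.3, 50.4 and 56.5 CPM in naive libraries. Novelty and naive libraries did not overlap in either genotype, although cKO novelty library 3, at 54.0 CPM, was only just above the highest naive library. The log2 fold change was 0.81 in cKO mice (SE 0.12, adjusted p = 0.00231 in edgeR) and 0.62 in controls (SE 0.09, adjusted p = 0.00173 in edgeR).

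The small atypical phosphatases did not pass the test for novelty in either genotype. Dusp3 (chr11:101971143-101987013, minus strand) was at 132.4 to 154.7 CPM in cKO novelty libraries and 134.2 to 158.3 CPM in cKO naive libraries. In control libraries it was at 142.6 to 173.0 CPM after novelty and at 140.7 to 162.7 CPM when naive. Its 4 groups overlapped, and the novelty effect averaged over genotypes was 0.00 (log2, SE 0.04). Dusp14 (chr11:84048041-84069261, minus strand) was at 22.3 to 30.1 CPM in cKO novelty libraries, 21.9 to 28.8 CPM in control novelty libraries, 21.4 to 25.8 CPM in cKO naive libraries and 18.1 to 23.2 CPM in control naive libraries. Its averaged novelty effect was 0.15 (log2, SE 0.06, adjusted p = 0.139 in edgeR). Dusp3 lies 1.26 Mb from Kat2a on chromosome 11, and 2 genes annotated over it were at no more than 0.195 CPM in any library.

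The Sprouty genes, inhibitors of signalling from receptors to RAS, parted: Spry4 rose with novelty in both genotypes and Spry2 passed in neither. Spry4 (chr18:38586268-38601268, minus strand) had a lowest, median and highest level of 15.0, 16.5 and 19.6 CPM in cKO novelty libraries, against 10.2, 11.0 and 12.9 CPM in cKO naive libraries. In control mice it was at 17.4, 20.2, 17.0, 15.3 and 16.8 CPM after novelty, against a lowest, median and highest level of 11.5, 12.7 and 13.4 CPM in naive libraries. No novelty library fell within the naive range of its genotype. The log2 fold change was 0.58 in cKO mice (SE 0.07, adjusted p = 0.000272 in edgeR) and 0.46 in controls (SE 0.07, adjusted p = 0.00403 in edgeR). Spry2 (chr14:105891949-105896819, minus strand) was at 28.3 to 37.9 CPM in cKO novelty libraries against 29.7 to 40.3 CPM in cKO naive libraries, and at 34.2 to 39.8 CPM in control novelty libraries against 37.4 to 42.8 CPM in control naive libraries. Its log2 fold changes for novelty were -0.06 in cKO mice (SE 0.09) and -0.14 in controls (SE 0.06), and neither passed.

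Both Spred genes rose with novelty in both genotypes, by smaller factors than Dusp5, Dusp6 and Spry4. Spred1 (chr2:117121374-117182279, plus strand), a partner of the RAS inhibitor neurofibromin at the membrane, had a lowest, median and highest level of 172.1, 186.0 and 204.5 CPM in cKO novelty libraries, against 144.7, 162.9 and 173.5 CPM in cKO naive libraries. In control mice it was at 207.8, 236.6, 229.4, 197.4 and 206.9 CPM after novelty, against a lowest, median and highest level of 162.7, 164.0 and 200.7 CPM in naive libraries. Only control naive library 2, at 200.7 CPM, reached into the range of the control novelty libraries. The log2 fold change was 0.22 in cKO mice (SE 0.05, adjusted p = 0.0168 in edgeR) and 0.32 in controls (SE 0.06, adjusted p = 0.0203 in edgeR). The call in controls was lost without control naive library 6, control novelty library 2 or control novelty library 3 (edgeR adjusted p = 0.059, 0.0615 and 0.0575).

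Spred2 (chr11:19924375-20024026, plus strand), the close relative of Spred1, had the smallest relative spread of the 10 members after novelty, with a coefficient of variation of 2.43% in cKO novelty libraries and 3.53% in control novelty libraries. Its lowest, median and highest levels in cKO mice were 120.5, 125.1 and 128.5 CPM after novelty, against 103.0, 109.6 and 113.9 CPM in naive libraries. In control mice it was at 145.0, 142.2, 137.2, 137.7 and 132.3 CPM after novelty, against a lowest, median and highest level of 106.1, 117.0 and 121.6 CPM in naive libraries. Novelty and naive libraries did not overlap in either genotype. The log2 fold change was 0.19 in cKO mice (SE 0.03, adjusted p = 0.00319 in edgeR) and 0.25 in controls (SE 0.05, adjusted p = 0.00954 in edgeR).

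**Figure D2:**
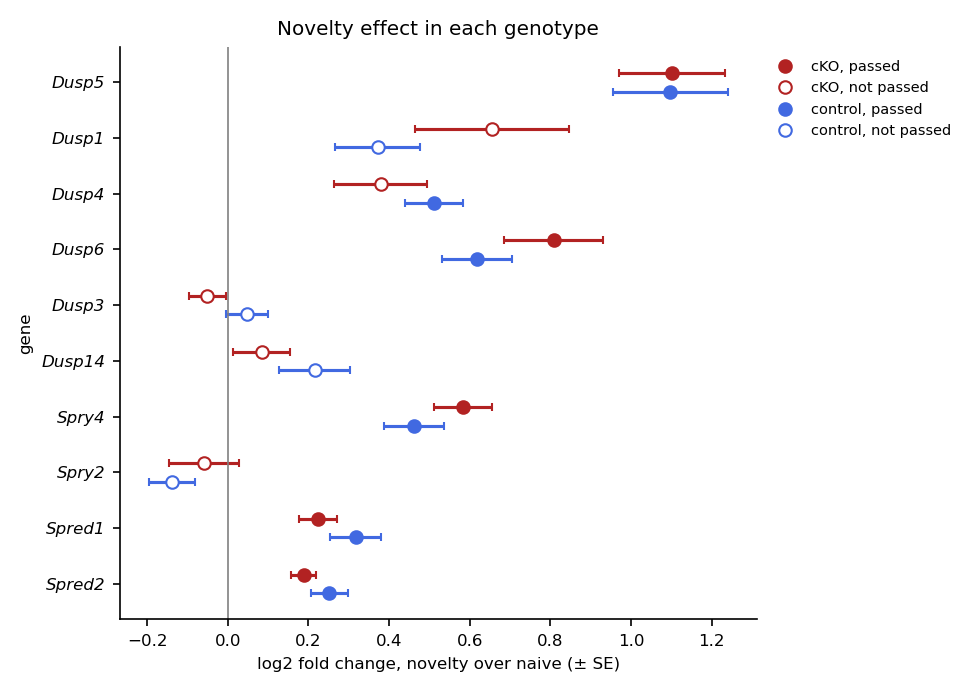
Log2 fold change of novelty over naive for each regulator (x axis, bars give the SE), in cKO mice (red) and in control mice (blue). Filled points passed the edgeR test at an adjusted p below 0.05. Dusp5, Dusp6, Spry4, Spred1 and Spred2 are filled in both genotypes and Dusp4 in controls only, while its difference between genotypes was not past the threshold.

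The members were chosen with earlier results of these data known, so their counts are descriptions. Counted together, 5 members rose with novelty in cKO mice and none fell, while 1.92% of the 16339 genes tested rose and 0.484% fell. In controls 6 members rose and none fell, while 1.02% of 16100 genes rose and 0.199% fell. The median log2 fold change of the 10 members was 0.30 in cKO mice and 0.34 in controls, against -0.01 over all genes tested in each comparison. Novelty libraries stood above all naive libraries for Dusp5, Dusp6, Spry4 and Spred2 in cKO mice, where 1.56% of genes did so, and for these 4 and Dusp4 in controls, where 1.75% of genes did so. In the fit of all 24 libraries, 7 members rose with novelty averaged over genotypes and none fell, while 4.43% of 16744 genes rose and 2.13% fell. Exact two-sided permutation tests over the libraries, unadjusted, gave p = 0.00216 for each of the 5 separated members in controls, the smallest that 462 splits allow. For the 4 separated members in cKO mice these tests gave p between 0.000583 and 0.00117. In both genotypes these p-values follow from the separation and add no support to it. Libraries were also split into those numbered 1 to 3 and those numbered 4 and above. No label names this division, which was seen in these data. The parts numbered 1 to 3 held 3 novelty and 3 naive libraries in each genotype. Those numbered 4 and above held 4 and 3 in cKO mice and 2 and 3 in controls. Both parts showed higher novelty levels for each member that passed, which the separation fixes in advance for all but Spred1. Spred1 differed by 0.23 and 0.23 on the log2 CPM scale in cKO mice and by 0.35 and 0.27 in controls. Dusp5 differed by 0.93 and 1.08 on the log2 CPM scale in cKO mice and by 1.20 and 0.96 in controls. Dusp1 differed by 0.33 and 0.79 in cKO mice and by 0.49 and 0.22 in controls.

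In the authors' deposited table for novelty in cKO mice 7 members had an adjusted p below 0.05, Dusp1 and Dusp4 among them, with log2 fold changes of 0.58 and 0.36. In the authors' deposited table for novelty in controls 7 members also did, with Dusp1 at a log2 fold change of 0.36 and an adjusted p of 0.0432. Those tables were made with DESeq2 and called 4.41% of 16228 genes for novelty in cKO mice and 2.79% of 16041 for novelty in controls.

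The novelty effect on the 10 members did not differ detectably between the genotypes. The interaction test called 0 of 16744 genes (0.0%), with 688 (4.11%) at an unadjusted p below 0.05, and DESeq2 and limma-voom also called 0. No member had an unadjusted p below 0.05. The largest difference in the novelty effect was that of Dusp1, 0.28 (log2, SE 0.24), with the larger effect in cKO mice. For Dusp6 it was 0.18 (SE 0.16), for Spry4 0.11 (SE 0.10), for Spred1 -0.10 (SE 0.08) and for Spred2 -0.07 (SE 0.05). For Dusp5 the difference was 0.00 with an SE of 0.21, the largest SE after that of Dusp1.

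Between genotypes, averaged over exposures, 4 members fell in cKO mice and none rose, while 6.32% of 16744 genes fell and 5.72% rose. Dusp4 fell by 0.27 (log2, SE 0.07, adjusted p = 0.0133 in edgeR), Spry2 by 0.16 (SE 0.05, adjusted p = 0.049 in edgeR), Spred1 by 0.14 (SE 0.04, adjusted p = 0.0254 in edgeR) and Spred2 by 0.12 (SE 0.03, adjusted p = 0.00259 in edgeR). The median over the 10 members was -0.11, against 0.01 over all genes tested. Spry2 stood at the threshold: its call was lost when any 1 of cKO naive libraries 1, 2 and 6, cKO novelty libraries 1, 2, 3, 5 and 7, control naive libraries 1 to 6 or control novelty libraries 2, 3 and 5 was left out (edgeR adjusted p between 0.0502 and 0.106). It was also lost with upper-quartile scaling (edgeR adjusted p = 0.068) and without the filter on low counts (0.0527). The Spred1 call was lost without control novelty library 2 or 3 (edgeR adjusted p = 0.0623 and 0.0526), and those of Dusp4 and Spred2 held in all 24 such fits.

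Markers of several cell types were lower in cKO mice as well. Averaged over exposures, 6 of 8 oligodendrocyte markers, 3 of 8 CA1 pyramidal, 3 of 8 interneuron, 2 of 8 dentate granule, 2 of 6 oligodendrocyte precursor and 2 of 8 endothelial and pericyte markers fell, and no marker of these lists rose. No marker passed in either direction in the lists of CA3 and CA2 pyramidal neurons, astrocytes, microglia, and choroid plexus and ependyma. Their median log2 fold changes were 0.143, -0.039, 0.055 and -0.087. Oligodendrocyte markers summed to 3161 to 6119 CPM in cKO novelty libraries against 4586 to 5630 CPM in control novelty libraries, and to 4140 to 5182 CPM in cKO naive libraries against 4874 to 5221 CPM in control naive libraries. CA1 pyramidal markers summed to 1200 to 1431 CPM in cKO novelty libraries against 1390 to 1592 CPM in control novelty libraries, and to 1253 to 1463 CPM in cKO naive libraries against 1323 to 1774 CPM in control naive libraries. Dentate granule markers summed to 122.6 to 273.0 CPM in cKO novelty libraries against 185.6 to 425.0 CPM in control novelty libraries, with a median log2 fold change of -0.52 after novelty and none of the 8 past the threshold there. In naive mice they summed to 162.3 to 343.2 CPM in cKO libraries against 194.1 to 338.5 CPM in control libraries, with a median of -0.025. Endothelial and pericyte markers summed to 203.1 to 281.0 CPM in cKO novelty libraries against 270.4 to 290.7 CPM in control novelty libraries. None of the oligodendrocyte, CA1 pyramidal, dentate granule, or endothelial and pericyte markers was at 0. The part of the cell types with lower markers in the lower levels of Dusp4, Spry2, Spred1 and Spred2 was not tested. For novelty averaged over genotypes, no CA1 pyramidal, dentate granule or interneuron marker passed in either direction, and 1 astrocyte and 1 oligodendrocyte marker fell. In the microglial list 1 marker rose and another fell, and so it was in the list of endothelium and pericytes.

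After novelty, Spred2 was the only member to pass between genotypes in edgeR, where 2.4% of 16188 genes fell and 2.13% rose. All 7 cKO novelty libraries, at 120.5 to 128.5 CPM, lay below all 5 control novelty libraries, at 132.3 to 145.0 CPM, a separation that 1.94% of genes showed. The log2 fold change was -0.15 (SE 0.03, adjusted p = 0.0185 in edgeR) and the exact two-sided permutation p was 0.00126. That permutation p is the smallest that 792 splits allow and follows from the separation. The call was lost without control novelty library 2 (edgeR adjusted p = 0.0618). Spred2 differed by -0.21 on the log2 CPM scale between libraries numbered 1 to 3 and by -0.10 between those numbered 4 and above, and Dusp4 by -0.43 and -0.27. Spred1 averaged 188.5 ± 11.0 CPM in cKO novelty libraries and 215.6 ± 16.6 CPM in control novelty libraries (SD, n = 7 and 5), with a log2 fold change of -0.19 (SE 0.05) just beyond the threshold (edgeR adjusted p = 0.0504). It passed in DESeq2 (adjusted p = 0.0153), with the size factors of DESeq2 in edgeR (0.0459), without the filter on low counts (0.0378) and with a term for libraries numbered 1 to 3 (0.0464). It also passed without control novelty library 4 or cKO novelty library 1 or 3 (edgeR adjusted p = 0.03, 0.0481 and 0.0252). Dusp4 averaged 16.9 ± 3.08 CPM in cKO novelty libraries and 21.4 ± 2.02 CPM in control novelty libraries (SD, n = 7 and 5) and did not pass (edgeR adjusted p = 0.104), but did in DESeq2 (adjusted p = 0.0494) and with the spread from all 24 libraries (edgeR adjusted p = 0.0479). Dusp1 averaged 21.4 ± 6.46 CPM in cKO novelty libraries and 16.3 ± 2.45 CPM in control novelty libraries (SD, n = 7 and 5), the largest upward difference among the 10, and did not pass either (edgeR adjusted p = 0.267).

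In naive mice none of the 10 members passed between genotypes in edgeR, DESeq2 or limma-voom, where edgeR found 0.495% of 16360 genes lower and 0.306% higher. At an unadjusted edgeR p below 0.05 there were 5 members, and 13.6% of all genes tested. The lower ones in cKO mice were Dusp4, Dusp6, Spry2 and Spry4, with log2 fold changes of -0.20, -0.18, -0.20 and -0.16, and the higher one was Dusp14, at 0.15 (edgeR adjusted p between 0.285 and 0.359 for the 5). Spry4 averaged 11.2 ± 0.941 CPM in cKO naive libraries and 12.6 ± 0.659 CPM in control naive libraries (SD, n = 6 each), and the groups overlapped. In the authors' deposited tables, 0 members were called between genotypes in naive mice, where 3.18% of 16217 genes were, and 2 after novelty, where 8.17% of 16057 genes were. Those called after novelty in the authors' deposited table were Spred2 at a log2 fold change of -0.16 and Spred1 at -0.19.

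**Figure D3:**
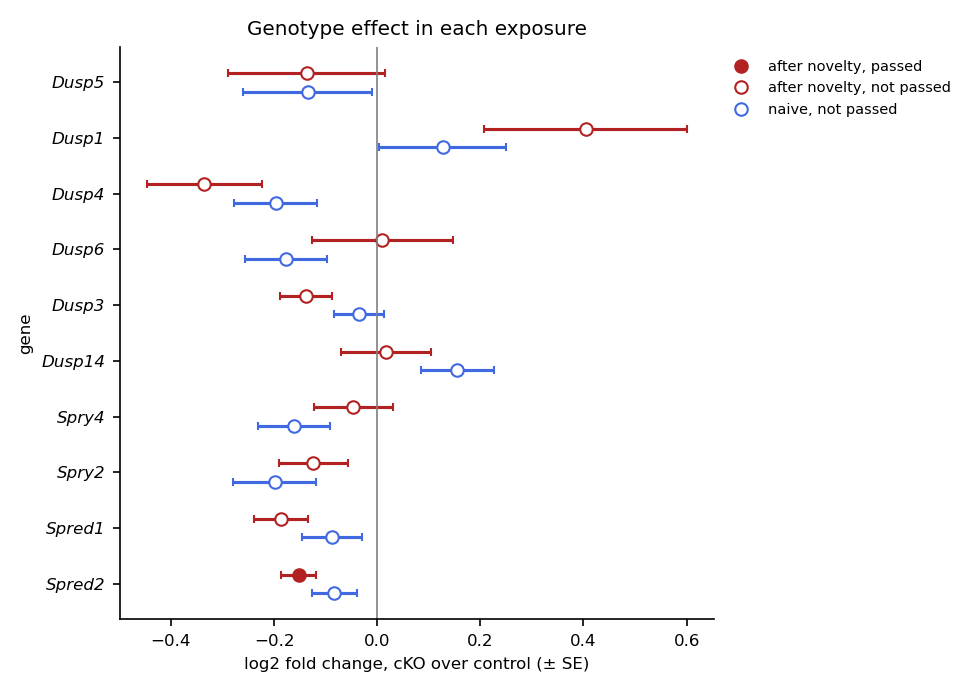
Log2 fold change of cKO over control for each regulator (x axis, bars give the SE), after novelty (red) and in naive mice (blue). The filled point passed the edgeR test at an adjusted p below 0.05. Spred2 after novelty, at -0.15, is the 1 filled point, and none of the 10 members passed in naive mice.

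Other genes of the pathway were set beside the members, in lists that were also chosen with earlier results of these data known. Over all genes tested, 4.43% rose and 2.13% fell with novelty averaged over genotypes, and the counts of the lists stand against these shares. None of 6 other MAP kinase phosphatases of the DUSP family rose or fell with novelty averaged over genotypes, and of 10 atypical DUSPs tested 1 fell, Dusp23 (-0.30, SE 0.08, edgeR adjusted p = 0.0143). The 2 other Sprouty and Spred genes tested, Spry1 (-0.028, SE 0.095) and Spred3 (0.052, SE 0.042), did not pass (edgeR adjusted p = 0.94 and 0.606). In the same comparison 2 of 17 other inhibitors of receptors and RAS rose. They were Errfi1, a feedback inhibitor of the EGF receptor (0.78, SE 0.08, edgeR adjusted p = 1.21e-07), and Cbl, a ubiquitin ligase for activated receptors (0.20, SE 0.03, edgeR adjusted p = 0.000109). Errfi1 averaged 60.8 ± 7.43 CPM in cKO novelty libraries (SD, n = 7) against 35.1 ± 5.69 CPM in cKO naive libraries (SD, n = 6), and 59.2 ± 10.4 CPM in control novelty libraries (SD, n = 5) against 34.6 ± 2.37 CPM in control naive libraries (SD, n = 6). Of the 30 tested genes of the RAS to ERK cascade itself 2 rose with novelty and none fell, a share near that of all genes. They were Mknk2 (0.36, SE 0.06), a kinase that ERK activates, and Sos1 (0.13, SE 0.04), a RAS exchange factor. Transcripts known to be induced by ERK moved most, with 18 of 29 higher and none lower and a median log2 fold change of 0.41. Fosb (2.64, SE 0.11), Egr1 (1.80, SE 0.09), Egr2 (4.39, SE 0.23) and Fos (3.31, SE 0.21) had the smallest p among them, and all 4 are transcription factors.

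Upstream and beside the cascade few genes moved with novelty, in shares near those of all genes. Bdnf, a neurotrophin whose receptor signals to ERK, rose by 0.46 (log2, SE 0.08), and Pdgfrb, a receptor of pericytes, fell by 0.20 (SE 0.06), out of 20 receptors and ligands tested. Of 18 genes of the JNK and p38 cascades, Mapkapk2, a kinase activated by p38, rose by 0.11 (SE 0.03). Between genotypes, averaged over exposures, 4 of 30 genes of the RAS to ERK cascade rose and 3 fell in cKO mice, where 5.72% of all genes rose and 6.32% fell. Mapk3, which encodes the ERK family member known as ERK1, rose by 0.30 (SE 0.03, adjusted p = 1.58e-06 in edgeR), and Rasgrp1, a RAS exchange factor, fell by 0.26 (SE 0.05, adjusted p = 0.000458 in edgeR). Of 18 genes of the JNK and p38 cascades 2 rose, Mapk12, a p38 family kinase, by 0.54 (SE 0.08) and Map2k3, a kinase that activates p38, by 0.20 (SE 0.05). The third to pass, Mapk10, a JNK expressed in neurons, fell by 0.11 (SE 0.02). Of the other DUSP phosphatases 2 of 6 fell in cKO mice, Dusp10 by 0.30 (SE 0.08) and Dusp8 by 0.11 (SE 0.03), and both act on JNK and p38. Of 29 ERK-induced transcripts 4 fell, the transcription factor genes Etv1 (-0.44, SE 0.08), Etv5 (-0.23, SE 0.06), Myc (-0.25, SE 0.08) and Fosl2 (-0.27, SE 0.09), and 1 rose, Klf10 (0.24, SE 0.07), with a list median of -0.01. Bdnf fell by 0.24 (SE 0.08, adjusted p = 0.0384 in edgeR).

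**Figure D4:**
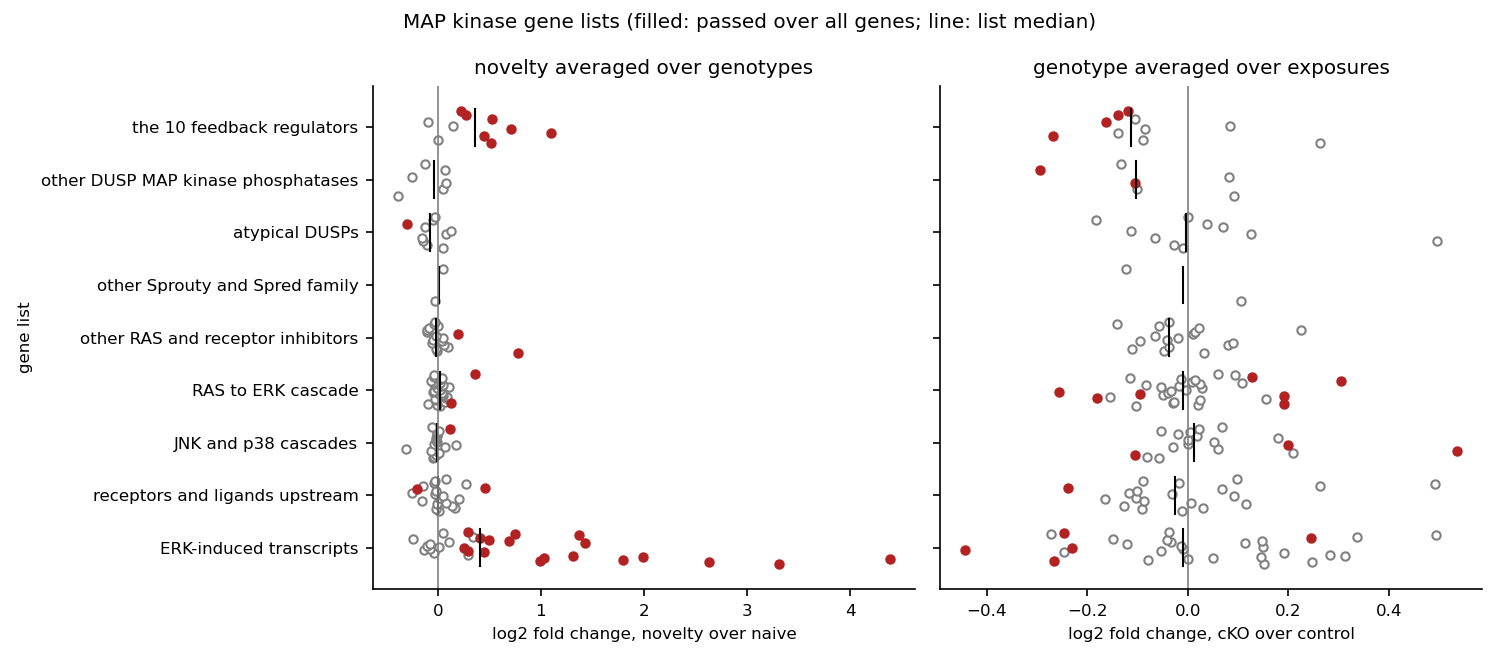
Log2 fold changes of the 10 feedback regulators and of 8 lists of MAP kinase genes (rows), for novelty averaged over genotypes (left panel) and for genotype averaged over exposures (right panel). Filled points passed the edgeR test over all genes and black lines mark the list medians. The medians for novelty are 0.36 for the 10 regulators, 0.41 for ERK-induced transcripts and between -0.08 and 0.02 for the other 7 lists. Regulators and lists were chosen with earlier results of these data known.

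Per kilobase of annotated exon, the levels in control naive libraries ran from 2.74 to 32.2 CPM per kilobase. Dusp3 stood highest at 32.2 ± 1.68 CPM per kilobase, followed by Spred1 at 25.3 ± 2.20, Spred2 at 25.0 ± 1.26, Spry2 at 19.1 ± 1.17, Dusp6 at 16.3 ± 1.34 and Dusp14 at 10.7 ± 1.03 (SD, n = 6). The low end was held by Dusp4 at 5.43 ± 0.326, Dusp5 at 5.32 ± 1.07, Dusp1 at 4.62 ± 0.611 and Spry4 at 2.74 ± 0.144 CPM per kilobase (SD, n = 6). Neighbours in this order whose libraries overlapped were Spred1 and Spred2, Spry2 and Dusp6, Dusp4 and Dusp5, and Dusp5 and Dusp1. The inducible nuclear phosphatases and Spry4 were the least abundant members in these libraries. After novelty Dusp6 averaged 25.2 CPM per kilobase in both genotypes, and Dusp5 averaged 10.5 in cKO and 11.6 in control libraries.

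Some members varied together across libraries of the same group. After the group means were taken away, log2 CPM over the 24 libraries had Pearson r of 0.65 for Dusp1 and Spry4, 0.57 for Dusp4 and Dusp6, 0.53 for Dusp5 and Dusp6 and 0.52 for Dusp4 and Dusp5. The lowest value was -0.50, for Dusp3 and Dusp6. The 24 points share library, depth and dissection, and the values are descriptions. Among 12017 genes with a mean of at least 5 CPM, the genes most like Dusp6 were Errfi1 (r = 0.84), Dnajb5 (0.80) and Arc (0.78). Those most like Dusp1 were Npas4 (0.79), Chrm4 (0.77) and Ctnna1 (0.76). For Dusp4 they were Rilpl1 (0.80), Thrsp (0.79) and Jun (0.78), and for Dusp5 they were Wscd1 (0.75), Wdr91 (0.74) and Egr2 (0.72). Arc, Npas4, Jun and Egr2 are known as activity-regulated genes of neurons, and Errfi1 is the EGF receptor inhibitor named above. With novelty averaged over genotypes, Arc (1.43, log2) and Egr2 (4.39) rose. Npas4 (0.08, edgeR adjusted p = 0.94) and Jun (0.14, edgeR adjusted p = 0.43) did not pass. For Spry4 they were Kcns1 (0.80), Nkrf (0.75) and Zfp395 (0.67), and for Spry2 Ier5 (0.76), Cmc2 (0.73) and Pdrg1 (0.72). Spred1 was nearest to Socs5 (0.85), Itgav (0.85) and Purb (0.84), and Spred2 to March4 (0.72) and Itm2b (0.70). For Dusp3 they were Pak1 (0.87), Klhl4 (0.86) and Efr3b (0.86), and for Dusp14 Scnn1a (0.83), Grm2 (0.81) and Lrtm2 (0.80).

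**Figure D5:**
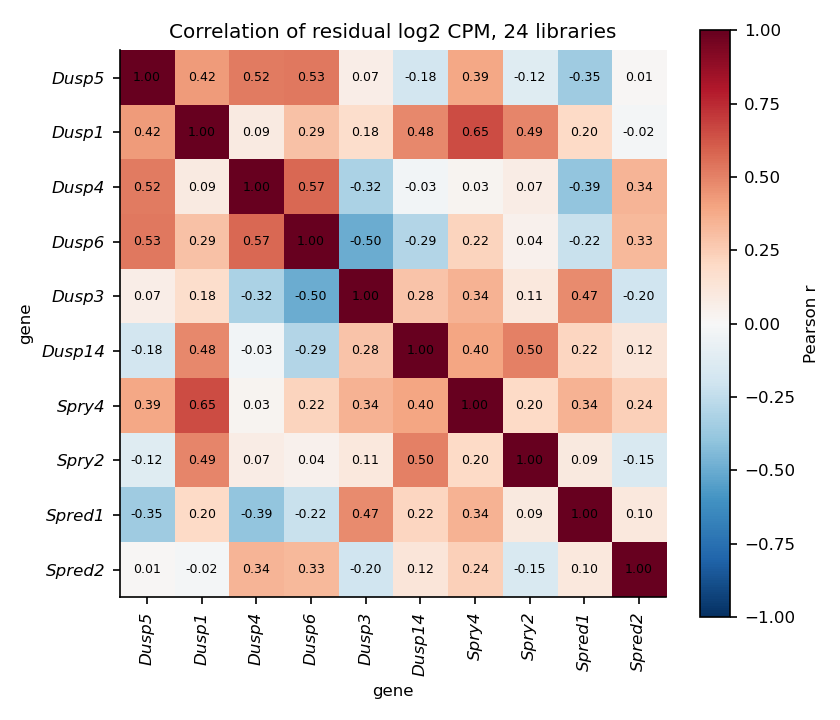
Pearson correlation between the 10 regulators of log2 CPM after the group means were taken away, over 24 libraries (both axes list the genes, colour and number give r). Dusp4, Dusp5 and Dusp6 form a block with r between 0.52 and 0.57. The lowest values are -0.497 (Dusp3 and Dusp6), -0.392 (Dusp4 and Spred1), -0.355 (Dusp5 and Spred1) and -0.316 (Dusp3 and Dusp4). All values are descriptions with no test.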

How the data were processed

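Polyadenylated CA1 RNA was sequenced in 24 libraries, which were grouped by genotype and exposure as labelled. For each library the authors deposited raw counts, whole numbers of reads for every gene without normalization. STAR 2.3.0, HTSeq, DESeq2 and build GRCm38.p2 appear in the submitters' processing notes with no roles. Neither the annotation release nor the strand setting of the counting is given in the sources used here. Entries for reads with no gene (7.58 to 10.36% of all), for ambiguous reads (1.06 to 1.18%) and for reads matching several places (14.82 to 17.97%) stayed out of library sizes and tests. The TruSeq kit keeps no strand information. The labels' protocol names cluster kits for paired-end and for single-end sequencing, and does not say which library had which. The 4 comparison tables that the authors deposited, made in DESeq2 according to the design text, hold base means (a signal, per the file headers), log2 fold changes with errors, and p-values. Symbols of 16355 genes and the coordinates of the members came from them, and symbols of 20435 other genes from a reference table of gene names.

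The main test was the robust quasi-likelihood F test (edgeR 4.0.16, R 4.3.3) with TMM scaling, a filterByExpr minimum count of 10, and adjustment by Benjamini-Hochberg over all genes tested. Genes under an adjusted p of 0.05 are said to have passed. Each SE was worked back from this test, as the absolute log2 fold change divided by the square root of F, and was not estimated separately. Pairwise comparisons used their own groups, and averaged effects and the interaction used all 24 libraries. The code was tested on simulated counts. Exact permutation tests, 40 in all and unadjusted, used log2(CPM + 1). Alternatives were DESeq2 1.42.0, limma-voom (limma 3.58.1), other scalings, no filter, other pseudocounts, the spread of all libraries, each library left out, and terms for title number and for titles numbered 1 to 3 against 4 and above. The members, 8 pathway lists, 10 marker lists and tests were chosen with earlier results of these data known. All members are named, plus up to 4 genes that passed per pathway list by smallest p, and the 3 genes with the highest r per member. For Spred2, 1 of these is not reported here. Libraries of a group differed by more than sampling noise (chi-square per degree of freedom of 3.79 or more), so none was taken as a duplicate. Same-numbered libraries share only their number by the labels and were not paired. Promoter windows are from RefSeq, exon lengths from GENCODE M21.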

Additional observations from a re-analysis of the deposited data

Results flagged for a closer look

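Within groups, 1 library each stood apart for Dusp14 and for Spred1, by the gap to its nearest neighbour relative to the range of the group. Dusp14 was at 30.1 CPM in cKO novelty library 4, against 22.3 to 25.3 CPM in the other 6 libraries of that group. Spred1 was at 201 CPM in control naive library 2, the shallowest library, against 163 to 175 CPM in the other 5. Among the 40 sets of values tested, 2 such cases were found, where chance gives about 1 in 20.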

How the results depend on the processing

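The count of members that passed stayed within 1.5 times its value under every alternative run for novelty in cKO mice (5 to 7), novelty averaged over genotypes (7 in each), genotype in naive mice (0) and the interaction (0). For novelty in controls it was 6 and became 4 with a replicate block of title numbers, which lost Dusp5 (log2 fold change 1.14, edgeR adjusted p = 0.0592) and Spred2 (edgeR adjusted p = 0.0502). The block also ended the Spry2 call for genotype averaged over exposures (edgeR adjusted p = 0.0738). For genotype after novelty it was 1 and became 2 with DESeq2 size factors, without the filter, with the spread from all 24 libraries or with the library numbers 1 to 3 against 4 and above as a term, 3 in DESeq2 and 0 with the replicate block, where Spred2 was lost (-0.16, edgeR adjusted p = 0.0589). Without 1 library it ranged from 0 to 2 for genotype after novelty, from 2 to 4 for genotype averaged over exposures, and from 5 to 6 for novelty in controls and in cKO mice. In the pairing check, same-numbered libraries had correlations between -0.16 and 0.37, and in each comparison 1 number had its best match in its own number. The block called 98 genes for novelty in controls, 207 for novelty in cKO mice, 70 between naive genotypes and 397 between genotypes after novelty, against 196, 393, 131 and 733 without it. DESeq2 called 361, 653, 465 and 1161 genes in these comparisons, and the spread from all 24 libraries gave 305 for novelty in controls and 322 for genotype in naive mice. Leaving out 1 library gave 113 to 255 genes for novelty in controls (lowest without control novelty library 2), 238 to 452 for novelty in cKO mice (without cKO naive library 2), 40 to 166 between naive genotypes (without control naive library 6) and 324 to 1025 between genotypes after novelty (without control novelty library 2). Upper-quartile scaling moved the share of higher genes among those called to 67.0% (79.9% with TMM) for novelty in cKO mice, to 53.9% (67.5% with TMM) for novelty averaged over genotypes, and to 58.5% (47.5% with TMM) for genotype averaged over exposures. Signs turned only in members near 0 that did not pass: Dusp6 for genotype after novelty (0.010, against -0.000 in limma-voom, -0.032 with the library number term and -0.104 with the replicate block), Dusp3 for novelty averaged over genotypes (0.000, against -0.017 with upper-quartile scaling and -0.001 with the library number term) and, when 1 library was left out, Dusp14 (-0.039 to 0.083), Spry4 (-0.087 to 0.017) and Dusp6 (-0.062 to 0.080) for genotype after novelty, Dusp3 for averaged novelty (-0.018 to 0.017) and Dusp5 for the interaction (-0.085 to 0.076). Other pseudocounts left each permutation test on its side of the threshold. The causes were not tested.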
